A study of Mus musculus with 20 samples.

Results

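Esrrb, Nr5a2, Prdm14, Tfcp2l1, Klf2 and Klf5 encode 6 transcription factors of naive pluripotency, the ground state of mouse embryonic stem cells, out of 21938 protein-coding genes in the annotation used. They were chosen by name as a functional group, with earlier results of these data known. Genome-wide peak lists from 14 of 20 chromatin immunoprecipitation sequencing (ChIP-seq) samples were searched around them. The cells were mouse embryonic fibroblasts (MEFs), untreated or taken at day 5 or day 10 after infection with the OSKM viruses (for Oct4, Sox2, Klf4 and c-Myc), which turn a minority of fibroblasts into pluripotent cells. The viruses were pMXs retroviruses and the medium contained vitamin C according to the study's methods, whereas the labels name a lentivirus.

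Of the 14 lists, 10 gave peaks of H3K27me3, the trimethylation of lysine 27 of histone H3. They came from wild-type cells (Jmjd3+/+, called WT here, strain label C57BL/6J-OG2, which carries an Oct4-GFP reporter) and from Jmjd3 knockout cells (Jmjd3-/-, called KO here, strain label C57Bl6J). Each genotype had 1 list of untreated MEFs (day 0) and, at day 5 and at day 10 of OSKM, 1 list from cells that also received a FLAG control vector and 1 from cells that also received JMJD3. KLF4 peaks came from 2 lists of WT OSKM cells at day 5, 1 with FLAG and 1 with JMJD3. Positions of FLAG-tagged JMJD3 came from 2 anti-FLAG lists of WT cells at day 5, 1 with OSKM and 1 with OSlowKM, in which less KLF4 virus was used and which is called low KLF4 here. The KO cells had been given JMJD3 back in their JMJD3 lists, so these are not lists of cells lacking the protein. Genotype and strain label changed together and cannot be told apart. The study describes littermate WT and Jmjd3 KO MEFs that lack the reporter in its colony counts, whereas the WT label here names OG2. The labels call the day 5 and day 10 cells presumed intermediates of reprogramming, and a list describes the whole culture. Every group had 1 library, so no difference given here has a replicate check. The only test run was an exact permutation test over the 4 pairs of FLAG and JMJD3 lists.

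In embryonic stem cells these factors bind to many of the same regulatory regions as Oct4, Sox2 and Nanog and keep the naive state going. Esrrb and Nr5a2 are orphan nuclear receptors, and the protein of Nr5a2, also called LRH1, can take the place of Oct4 in the reprogramming mixture. Tfcp2l1 belongs to the CP2 family and acts downstream of the LIF and STAT3 signal. Klf2 and Klf5 are zinc-finger proteins of the Krüppel-like family, relatives of the Klf4 used for reprogramming. Prdm14 is a PR-domain protein that holds back genes of the primed state and brings Polycomb complexes to them. H3K27me3 is laid down by Polycomb repressive complex 2 at silent developmental genes, and JMJD3 (gene Kdm6b) is a demethylase that takes it off.

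The H3K27me3 lists held 3045 to 6954 peaks of 1000 bp, each with a score from 6.56 to 200. The score scale was not stated and the highest value was a ceiling, so scores were read within a list. The exception was an alternative that applied a score of at least 20 to every list. List position below is the percent of a list's peaks that scored at least as high as a gene's best peak, so that a low value lies near the top of the list. The number of reads behind each list was not used here, and a list of more reads can hold more peaks. RNA was not measured in these files, so the label fibroblast could be examined only through H3K27me3: of 10 fibroblast marker genes, 1 had a peak near its transcription start site (TSS) in WT MEFs, against 14.6% of all genes, and 0 had a peak in KO MEFs, against 10.3%. The knockout could not be checked from peak positions.

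The 6 genes fell into 3 kinds of H3K27me3 pattern. Esrrb, Nr5a2 and Prdm14 had peaks no more than 5 kb from a TSS in all 10 lists, from MEFs to day 10, in both genotypes and with either vector. Klf2 had none in MEFs and a peak in 6 of the 8 OSKM lists, and Tfcp2l1 had a weak peak in 2 lists. Klf5 had none in any list. This grouping depended on list length: with every list held to its 3045 best-scoring peaks, Klf2 was marked in the 4 day 10 lists and not at day 5, Tfcp2l1 in no list, and Nr5a2 in 8 lists, without the FLAG lists of WT cells. Of all protein-coding genes, 4.68% had a peak in all 10 lists and 77.6% in none, against 3 and 1 of the 6 genes. The count of 3 depended on the internal TSSs of Esrrb and Nr5a2: with 1 TSS per gene, 1 of the 6 (Prdm14) had a peak in all 10 lists, against 4.36% of all genes, and with peaks scoring at least 20 it was also 1. List by list, 4 of the 6 genes had a peak in WT MEFs, where 14.6% of all genes did, and 3 in KO MEFs (10.3% of all genes). At day 5 the count was 4 with FLAG (14.7%) and 4 with JMJD3 (11.0%) in WT cells, and 3 with FLAG (13.7%) and 4 with JMJD3 (13.0%) in KO cells. At day 10 it was 4 in each list, against 12.1% of all genes with FLAG and 8.26% with JMJD3 in WT cells, and 12.8% with FLAG and 11.7% with JMJD3 in KO cells.

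**Figure D1:**
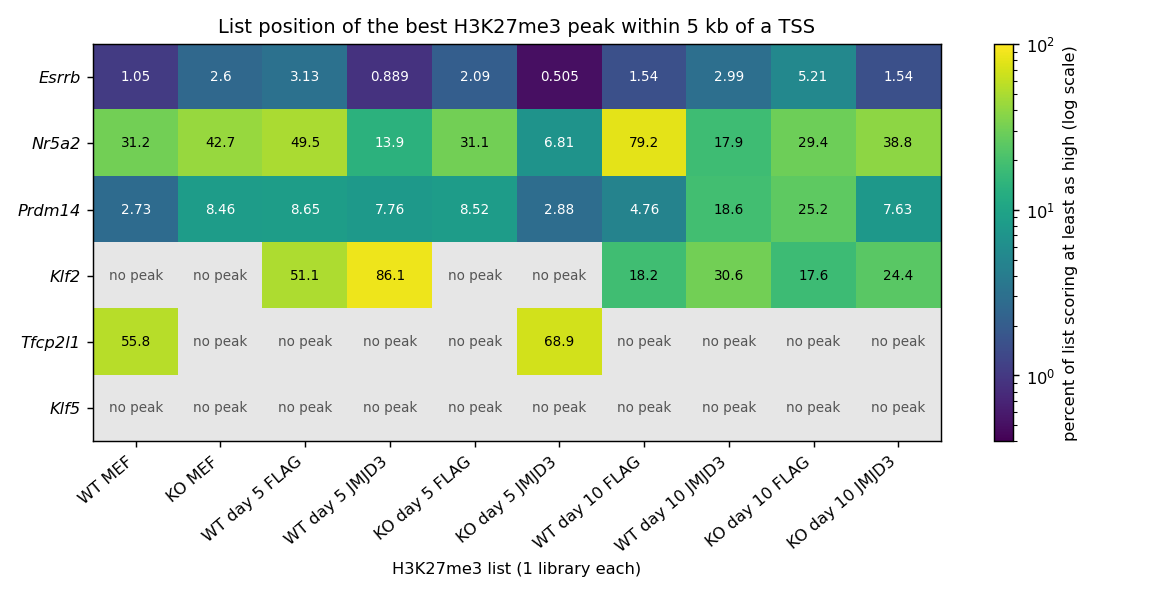
List position of the best H3K27me3 peak around the TSSs (5 kb on each side), in percent of the list on a log colour scale, for the 6 genes (rows) in the 10 H3K27me3 lists (columns, 1 library each), with grey cells for no peak. Esrrb stayed between 0.505% and 5.21% in all 10 lists, Klf2 had a peak in the 6 lists of day 5 WT and day 10 cells (2 of them, at day 5, low in the list), and Klf5 had none.

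Esrrb carried the mark most firmly of the 6. The gene lies on chromosome 12 from 86361117 to 86521628 on the plus strand (GRCm38, the build called mm10), and its best peak lay at the same internal TSS, at 86421883, in every list. The peak midpoint was 452 to 1122 bp downstream of that TSS, within an intron. The score was 122.72 in MEFs of the WT genotype and 42.5 in those of the KO genotype. The day 5 score was 85.32 with FLAG and 99.45 with JMJD3 in WT cells, and 73.6 with FLAG and 200 with JMJD3 in KO cells, where it was 1 of 33 peaks at the ceiling. At day 10 it was 55.79 with FLAG and 37.33 with JMJD3 in WT cells, and 37.46 with FLAG and 70.26 with JMJD3 in KO cells. The list position ranged from 0.505% (day 5 KO cells with JMJD3) to 5.21% (day 10 KO cells with FLAG), with a median of 1.81% over the 10 lists. No other member stood nearer the top of a list than Esrrb in any of the 10 lists.

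The best peaks of Esrrb in the 10 lists shared a stretch of 330 bp, from 86422506 to 86422835. Its middle 300 bp are printed because they are the sequence that every H3K27me3 list held at this gene, read from RefSeq's GRCm38.p6 genome, plus strand, 5′ to 3′, with each CpG in capitals. They hold 24 CpGs and 63.0% G and C.
Esrrb, chr12:86422521-86422820: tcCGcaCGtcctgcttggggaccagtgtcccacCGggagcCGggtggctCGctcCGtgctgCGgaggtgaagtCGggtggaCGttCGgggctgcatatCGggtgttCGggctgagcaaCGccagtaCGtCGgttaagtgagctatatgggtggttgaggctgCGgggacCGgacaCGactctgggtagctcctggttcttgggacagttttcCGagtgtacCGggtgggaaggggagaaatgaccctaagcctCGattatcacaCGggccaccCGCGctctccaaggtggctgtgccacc

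Esrrb also had weaker peaks farther along. A peak with its midpoint 3766 to 3993 bp past the TSS at 86470117 was called in all 4 JMJD3 lists and in no MEF or FLAG list. It was singled out after its values were seen. Of the 5064 peaks of day 5 WT cells with JMJD3, 5 (0.0987%) were likewise overlapped in the other 3 JMJD3 lists and in none of the 6 MEF and FLAG lists. The Esrrb peaks had scores at day 5 of 7.13 (WT) and 7.16 (KO), and at day 10 of 9.0 (WT) and 7.35 (KO), at list positions of 60.7% to 88.8%. Within the gene and 50 kb on each side, Esrrb had 1 to 7 peaks per list, most of them (7) in day 10 KO cells with JMJD3.

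Prdm14 came next by median list position, although Klf2 stood nearer the top in day 10 KO cells with FLAG and Nr5a2 in day 10 WT cells with JMJD3. The gene lies on chromosome 1 from 13113457 to 13127163 on the minus strand, with its TSS at 13127163, and its best peak had its midpoint 799 to 1560 bp downstream of the TSS, in an intron or a coding exon. The score was 92.92 in MEFs of the WT genotype and 29.2 in those of the KO genotype. The day 5 score was 55.3 with FLAG and 47.23 with JMJD3 in WT cells, and 42.47 with FLAG and 117.1 with JMJD3 in KO cells. At day 10 it was 38.01 with FLAG and 18.08 with JMJD3 in WT cells, and 17.59 with FLAG and 39.01 with JMJD3 in KO cells. The list position ranged from 2.73% in WT MEFs to 25.2% in day 10 KO cells with FLAG, with a median of 8.11%. The stretch common to the 10 best peaks was 239 bp long. It is printed whole for the same reason as that of Esrrb, from the same genome, on the minus strand so that it reads with the gene, with each CpG in capitals. It is poorer in CpG than the Esrrb stretch, with 9 CpGs and 48.1% G and C.
Prdm14, chr1:13125865-13126103: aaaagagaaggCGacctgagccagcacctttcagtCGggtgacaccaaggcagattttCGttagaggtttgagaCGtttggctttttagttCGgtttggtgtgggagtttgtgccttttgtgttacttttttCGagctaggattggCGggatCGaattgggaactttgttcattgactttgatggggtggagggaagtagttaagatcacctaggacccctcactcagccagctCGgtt

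Nr5a2 was marked in every list but at weaker and shifting places. The gene lies on chromosome 1 from 136842571 to 136960448 on the minus strand and has TSSs at 136960448, 136960380, 136953630 and 136949562. The best score was 20.52 in MEFs of the WT genotype and 12.04 in those of the KO genotype. The day 5 score was 13.37 with FLAG and 35.03 with JMJD3 in WT cells, and 19.96 with FLAG and 82.29 with JMJD3 in KO cells. At day 10 it was 7.62 with FLAG and 18.46 with JMJD3 in WT cells, and 15.78 with FLAG and 13.95 with JMJD3 in KO cells. The list position therefore ran from 6.81% to 79.2%, with a median of 31.1%, a wider span than that of Esrrb or Prdm14. The gene had 1 to 4 peaks per list, all in introns, at 3 places downstream of its TSSs. Those nearest the TSS at 136949562 were called in 10 lists with scores of 6.64 to 56.68. Those nearest the TSS at 136953630 were called in 8 lists with scores of 6.88 to 82.29. Those nearest the TSS at 136960380 were called in 6 lists with scores of 7.17 to 14.46. The best peak was at the first of these places in 6 lists and at the next in 4, and no stretch was common to the best peaks of all 10 lists.

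Klf2 was the gene whose H3K27me3 appeared after the fibroblast stage. The gene lies on chromosome 8 from 72319033 to 72321656 on the plus strand. Neither MEF list had a peak near it, and the nearest peak was 592 kb away with WT and 103 kb away with KO MEFs. At day 5 WT cells had a peak, with a score of 12.87 with FLAG (list position 51.1%) and 7.26 with JMJD3 (86.1%), and KO cells had none with either vector. At day 10 all 4 lists had it, with scores of 20.77 with FLAG (18.2%) and 13.99 with JMJD3 (30.6%) in WT cells, and of 22.19 with FLAG (17.6%) and 20.51 with JMJD3 (24.4%) in KO cells. The day 5 peaks thus lay in the lower part of their lists, and the day 10 peaks nearer the top. The 6 peaks began 623 to 952 bp downstream of the TSS, inside the gene, and shared 671 bp.

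The pattern of no peak in either MEF list and a peak in all 4 day 10 lists was found in 0.570% of all genes. It was defined from the lists of Klf2 after its values were seen, so its 1 of 6 members, Klf2 itself, is no result. Klf2 is a relative of the Klf4 carried by the virus, so the sequences were compared. The peaks covered 1329 bp, of which 760 bp are coding, and the longest identical run between this stretch and any Klf4 transcript was 14 bp, as it was for Myc, and 11 bp for Pou5f1 (Oct4) and Sox2. The central 300 bp of the shared stretch are printed because they are the sequence that gained a peak, plus strand, with each CpG in capitals. They hold 11 CpGs and 57.3% G and C.
Klf2, chr8:72320171-72320470: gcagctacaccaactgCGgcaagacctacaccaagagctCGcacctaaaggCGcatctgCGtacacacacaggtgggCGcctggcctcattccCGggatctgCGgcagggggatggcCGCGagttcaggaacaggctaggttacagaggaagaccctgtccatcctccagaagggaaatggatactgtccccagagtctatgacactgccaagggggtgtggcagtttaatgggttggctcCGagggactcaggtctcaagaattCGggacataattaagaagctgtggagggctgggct

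Tfcp2l1 had a weak peak in 2 lists. The gene lies on chromosome 1 from 118627945 to 118685168 on the plus strand. The peak scored 10.55 in WT MEFs (list position 55.8%) and 9.14 in day 5 KO cells with JMJD3 (68.9%), with its midpoint 519 and 240 bp downstream of the TSS. In the other 8 lists the nearest peak was at least 138 kb away. Klf5, on chromosome 14 from 99298691 to 99315036 on the plus strand, had no peak in any list, and the nearest lay between 987 kb (day 10 WT cells with FLAG) and 2780 kb away.

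The sequence around the TSSs did not order the genes as their marks did. Within 500 bp on each side, the ratio of observed to expected CpG was 0.925 and 0.912 at the TSSs of Klf5, which never had a peak, and those values were at least as high as in 93.9% and 92.7% of all genes. It was 0.732 at the marked TSS of Esrrb, 0.712 at Klf2, 0.584 at Tfcp2l1, 0.504 at Prdm14 and at most 0.461 at the TSSs of Nr5a2, against a median of 0.553 over all genes.

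**Figure D2:**
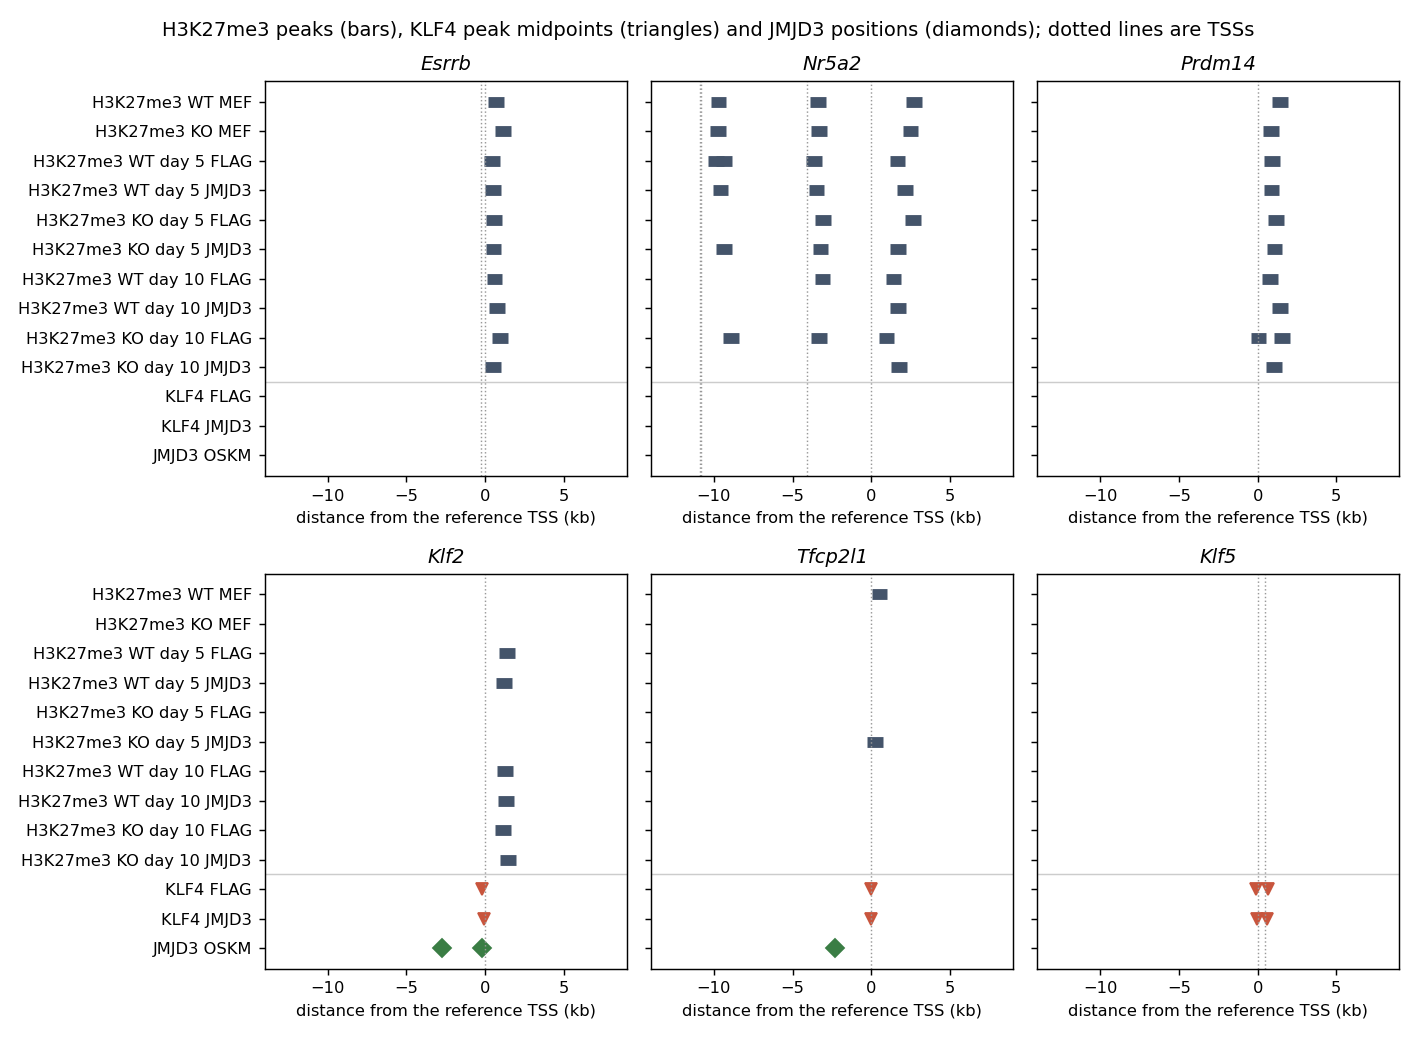
H3K27me3 peaks (bars, 10 lists), KLF4 peak midpoints (triangles, 2 lists) and JMJD3 positions with OSKM (diamonds) by distance in kb from a reference TSS (0), with transcription running to the right and TSSs as dotted lines; for Esrrb and Nr5a2 the reference is an internal TSS beside the peaks. Klf2 had KLF4 midpoints and JMJD3 upstream of its TSS and H3K27me3 downstream, whereas Esrrb, Nr5a2 and Prdm14 had H3K27me3 and neither KLF4 nor JMJD3 in the range shown.

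The first comparison over time followed the FLAG lists from MEFs to day 5 and day 10. Shares of all genes that moved toward or away from the top were not counted for these steps. The directions below therefore cannot be set against those of other genes. Esrrb, Nr5a2 and Prdm14 kept a peak throughout in both genotypes, Klf2 gained its peak, and Tfcp2l1 lost the weak peak of WT MEFs. In WT cells the list position of Esrrb went from 1.05% in MEFs to 3.13% at day 5 and 1.54% at day 10, that of Prdm14 from 2.73% to 8.65% and 4.76%, and that of Nr5a2 from 31.2% to 49.5% and 79.2%. All 3 therefore stood farther from the top at day 5 than in MEFs, and Nr5a2 farther still at day 10. In KO cells the position of Esrrb went from 2.60% in MEFs to 2.09% at day 5 and 5.21% at day 10, that of Prdm14 from 8.46% to 8.52% and 25.2%, and that of Nr5a2 from 42.7% to 31.1% and 29.4%. The KO MEF list held 4113 peaks and the day 5 list 5643, and by rank in the list the first step in KO cells was different: Esrrb went from rank 107 to 118, away from the top, and Nr5a2 from 1757 to 1755. Between day 5 and day 10 the courses of the genotypes ran in different directions for all 3 genes, by position and by rank.

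Exogenous JMJD3 was compared with its control in the FLAG and JMJD3 lists of the same genotype and day. None of the 6 genes lost every H3K27me3 peak near its TSSs when JMJD3 was added, although single peaks had no counterpart. In day 5 WT cells 0 of 4 genes with a FLAG peak lacked any with JMJD3, against 31.8% of all genes with a FLAG peak. In day 5 KO cells it was 0 of 3 against 20.5%, in day 10 WT cells 0 of 4 against 41.3%, and in day 10 KO cells 0 of 4 against 25.1%. Most losses over all genes fell on weaker peaks. Among genes whose best FLAG peak was in the top 25% of its list, 5.70% of all genes and 0 of 2 members (Esrrb and Prdm14) lost it in day 5 WT cells, and 2.14% and 0 of the same 2 members in day 5 KO cells. At day 10 the shares were 17.0% of all genes and 0 of 3 members (Klf2 as well) in WT cells, and 5.20% and 0 of 2 members (Esrrb and Klf2) in KO cells. The count of 0 did not hold under every alternative: with 1 TSS per gene, within 1 kb of a TSS or with a score of at least 20, it was 1 or 2 in some of the pairs.

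Peak by peak, 4 of the members' FLAG peaks near a TSS were overlapped by no JMJD3 peak. In day 5 WT cells it was 1 of 8, a weak peak of Esrrb from 86364736 to 86365735 with a score of 6.7, against 36.7% of all FLAG peaks near a TSS. In day 5 KO cells it was 0 of 4, against 24.3%. In day 10 WT cells it was 1 of 5, against 47.8%, and this was the best FLAG peak of Nr5a2, from 136952165 to 136953164, with a score of 7.62. The best JMJD3 peak of Nr5a2 in that pair therefore lay elsewhere in the gene. In day 10 KO cells it was 2 of 7, against 30.4%, both of them weaker peaks of Nr5a2, with scores of 8.16 and 9.91.

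At day 5 the peaks of Esrrb, Nr5a2 and Prdm14 stood nearer the top of the JMJD3 list than of the FLAG list in both genotypes. In WT cells Esrrb went from 3.13% with FLAG to 0.889% with JMJD3, Nr5a2 from 49.5% to 13.9%, and Prdm14 from 8.65% to 7.76%, a small step. Klf2 went the other way, from 51.1% to 86.1%. That made 3 of 4 genes nearer the top in WT cells, against 36.0% of all genes with a peak in both lists. In KO cells Esrrb went from 2.09% to 0.505%, Nr5a2 from 31.1% to 6.81% and Prdm14 from 8.52% to 2.88%, which made 3 of 3, against 54.8% of all genes. Tfcp2l1 had a peak with JMJD3 and none with FLAG there.

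At day 10 the direction depended on the gene and the genotype. In WT cells Nr5a2 moved toward the top with JMJD3, from 79.2% to 17.9%, whereas Esrrb went from 1.54% to 2.99%, Prdm14 from 4.76% to 18.6% and Klf2 from 18.2% to 30.6%. This was 1 of 4 genes nearer the top, against 34.8% of all genes. In KO cells Esrrb went from 5.21% to 1.54% and Prdm14 from 25.2% to 7.63%, both toward the top, while Nr5a2 went from 29.4% to 38.8% and Klf2 from 17.6% to 24.4%, which made 2 of 4 against 45.9% of all genes. The lists differed in length, with 3045 peaks in day 10 WT cells with JMJD3 against 5131 with FLAG, and a position within a list is not an amount of the mark. The Klf2 peak of day 10 WT cells ranked 933 with FLAG and 932 with JMJD3, so that its position there moved with the length of the list and not with its rank. The other directions with JMJD3 were the same by rank.

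For Esrrb, Nr5a2 and Prdm14, which had peaks in all 4 pairs, the change in list position was put to an exact permutation test that exchanged FLAG and JMJD3 within each pair, two-sided, added after the data were seen. The mean change was -1.51 points for Esrrb (permutation p = 0.25), -27.9 for Nr5a2 (p = 0.25) and -2.55 for Prdm14 (p = 0.625), each toward the top in 3 of 4 pairs. The best Nr5a2 peak lay at different places in the 2 lists of 3 pairs, all but day 10 KO cells. At 1 place, near the TSS at 136949562, Nr5a2 went from 49.5% to 16.4% in day 5 WT cells, from 31.1% to 12.9% in day 5 KO cells, from 99.5% to 17.9% in day 10 WT cells and from 29.4% to 38.8% in day 10 KO cells, with a mean change of -30.9 points (exact permutation p = 0.25). The pairs differ in genotype and day, and the smallest p that 4 pairs allow is 0.125, so this test could not reach 0.05.

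**Figure D3:**
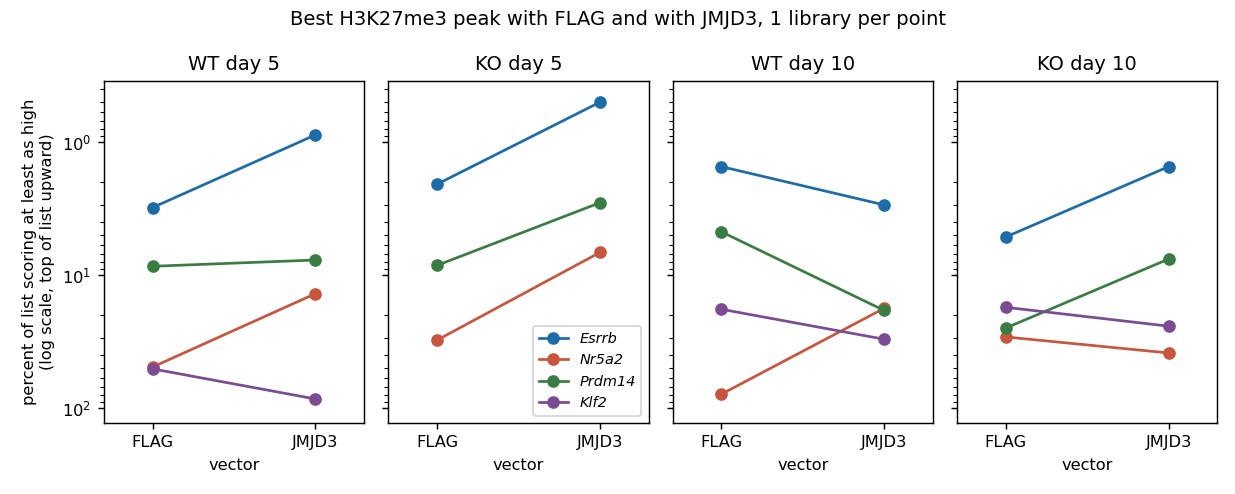
List position of the best H3K27me3 peak with FLAG and with JMJD3 for the genes with a peak in both lists (4 genes, or 3 in day 5 KO cells, where Klf2 had none), in percent of the list on a log axis with the top of the list upward, 1 panel per genotype and day and 1 library per point. The lines of Esrrb, Nr5a2 and Prdm14 rise at day 5 in both genotypes, and at day 10 each of these 3 lines runs in opposite directions in WT and KO cells.

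The genotype comparison set KO lists beside WT lists. It was not counted how many of all genes moved the same way between genotypes, so no direction given here can be called particular to these genes. In MEFs Esrrb, Nr5a2 and Prdm14 stood farther from the top in KO than in WT cells, at 2.60% against 1.05%, 42.7% against 31.2% and 8.46% against 2.73%, and the WT peak of Tfcp2l1 was absent. The KO list was shorter, with 4113 peaks against 6954, and by rank the best peak of Nr5a2 stood nearer the top in KO MEFs (1757 against 2170), whereas Esrrb (107 against 73) and Prdm14 (348 against 190) did not. The best Nr5a2 peaks of these lists lay at different places. Near the TSS at 136949562 the rank was 1757 in KO and 2302 in WT MEFs, and near the TSS at 136953630 it was 2440 and 2170, so the order by rank depended on the place. At day 5 with FLAG the 3 genes stood nearer the top in KO cells, at 2.09% against 3.13% for Esrrb, 31.1% against 49.5% for Nr5a2 and, almost level, 8.52% against 8.65% for Prdm14. With JMJD3 they also stood nearer the top in KO cells, at 0.505% against 0.889%, 6.81% against 13.9% and 2.88% against 7.76%. The presence of a peak differed between genotypes at day 5 for Klf2, with a peak in both WT lists and in neither KO list, and for Tfcp2l1, with a peak in KO cells with JMJD3 and none in WT cells. Both differences rested on peaks low in their lists, at ranks 3287 and 4359 for Klf2 and 4503 for Tfcp2l1, and with lists of 3045 peaks or with a score of at least 20 neither gene had a peak at day 5 in either genotype.

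At day 10 with FLAG, Esrrb and Prdm14 stood farther from the top in KO cells, at 5.21% against 1.54% and 25.2% against 4.76%, and Nr5a2 nearer, at 29.4% against 79.2%. With JMJD3 each of the 3 went the other way, at 1.54% in KO against 2.99% in WT cells for Esrrb, 7.63% against 18.6% for Prdm14 and 38.8% against 17.9% for Nr5a2. Klf2 had a peak in both genotypes, at 17.6% in KO and 18.2% in WT cells with FLAG (ranks 944 and 933), and at 24.4% and 30.6% with JMJD3 (ranks 1189 and 932).

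At day 5 KLF4 was found near 4 of the 6 genes. Tfcp2l1, Klf2, Klf5 and Prdm14 had KLF4 peaks within the gene or 50 kb on each side, and Esrrb and Nr5a2 had none. This count of 4 of 6 was the same with FLAG and with JMJD3, against 59.5% and 67.2% of all genes, so that it was close to the share of all genes. Within 5 kb of a TSS the count was 3 of 6 in both lists (Tfcp2l1, Klf2 and Klf5), against 28.0% of all genes with FLAG and 37.1% with JMJD3. The nearest KLF4 peak was 119 kb from Esrrb and 376 kb from Nr5a2. All 6 KLF4 peaks of FLAG cells near these genes were also called in JMJD3 cells, with an overlap of 179 to 310 bp and midpoints 5 to 72 bp apart. The share over all KLF4 peaks was not counted here. The study reported that nearly all were shared between control and JMJD3 cells, so this count is no trait of these genes. Counted list by list, so that a shared peak counts more than once, there were 18 KLF4 and JMJD3 entries near these genes. For each entry the nearest TSS of a protein-coding gene was that of the member itself.

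Tfcp2l1 had KLF4 on its promoter and in an intron. The promoter peak ran from 118627754 to 118628102 with FLAG and from 118627781 to 118628066 with JMJD3, with its midpoint 18 and 23 bp upstream of the TSS. The intron peak lay 22.4 kb downstream, from 118650218 to 118650447 and from 118650248 to 118650491. Klf5 had a peak at each of its TSSs. The first ran from 99298462 to 99298771 with FLAG and from 99298424 to 99298879 with JMJD3, where 14.5% of the list was at least as wide. The second ran from 99299231 to 99299455 and from 99299121 to 99299461, in an intron. Klf2 had a promoter peak, from 72318767 to 72318953 with FLAG and from 72318775 to 72319090 with JMJD3. It was narrow with FLAG, where 87.7% of the list was at least as wide, and 316 bp wide with JMJD3, where the share was 43.2%. Prdm14 had its peak 9.15 kb past the end of the gene with FLAG and 9.13 kb with JMJD3, from 13104014 to 13104306 and from 13103983 to 13104328, between genes.

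FLAG-tagged JMJD3 with OSKM was found near 3 of the 6 genes, Klf2, Tfcp2l1 and Klf5, against 55.6% of all genes, a share close to that of all genes. Within 5 kb of a TSS it was found at 2 (Klf2 and Tfcp2l1), against 21.0%. Klf2 had positions at 72318857, which is 176 bp upstream of the TSS, and at 72316278, which is 2755 bp upstream. Tfcp2l1 had positions at 118625660, which is 2286 bp upstream of the TSS, at 118648231 in an intron and at 118689946, which is 4778 bp past the end of the gene. Klf5 had a position at 99353356, 38.3 kb past the end of the gene and the site nearest to the 50 kb limit. The nearest JMJD3 position was 121 kb from Prdm14, 159 kb from Nr5a2 and 266 kb from Esrrb.

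KLF4 and JMJD3 met at 1 gene. A KLF4 peak of JMJD3 cells had a JMJD3 position within 400 bp of its midpoint at Klf2, 75 bp away, and at none of the other 5 genes, against 33.5% of all genes. At Tfcp2l1 the nearest such distances were 2263 bp at the promoter and 2138 bp in the intron, and at Klf5 the nearest was 54065 bp. At Klf2 the JMJD3 positions and the KLF4 midpoints lay upstream of the TSS, although the KLF4 peak of JMJD3 cells ran across it, and the H3K27me3 peaks of day 5 and day 10 began downstream.

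With low KLF4, no JMJD3 position lay near any of the 6 genes, against 14.1% of all genes, and the nearest was 183 kb from Klf2, 266 kb from Esrrb, 306 kb from Tfcp2l1, 608 kb from Prdm14, 970 kb from Klf5 and 1390 kb from Nr5a2. All 6 JMJD3 positions found with OSKM were thus absent. The share of all OSKM positions absent with low KLF4 was not counted here. The study reported that most JMJD3 peaks of high KLF4 were lost with low KLF4, so this count is no trait of these genes. This list held 2284 positions against 14067 with OSKM, and the files give neither read numbers nor heights for them, so how much of the absence goes with the shorter list was not tested.

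**Figure D4:**
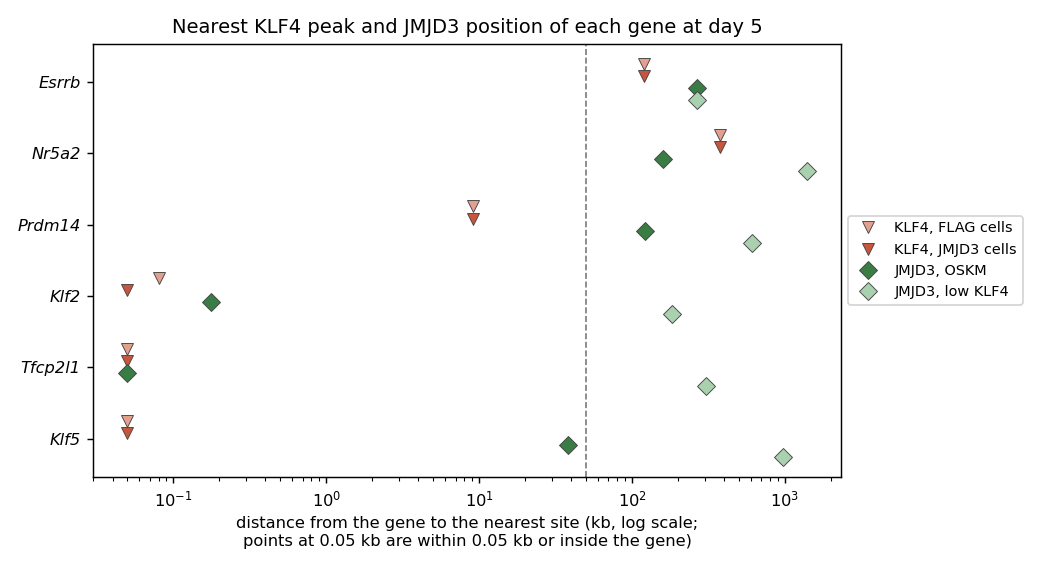
Distance in kb, on a log axis, from each of the 6 genes to the nearest KLF4 peak (triangles, 2 lists) and the nearest JMJD3 position (diamonds, 2 lists) at day 5, with the 50 kb limit as a dashed line and sites inside the gene or within 0.05 kb drawn at 0.05 kb. Klf2, Tfcp2l1 and Klf5 had both factors inside the limit with OSKM, Prdm14 had KLF4 alone, and with low KLF4 all 6 points lay beyond it.

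The sequences at these sites were searched on both strands for fixed letters, in windows of 200 bp around the KLF4 midpoint or the JMJD3 position. The KLF letters were GGGCGTGG or GGGTGTGG, both of which are also counted by the broader letters GGGNGNGG. The KLF letters were present in 2 of 6 windows of the members (Tfcp2l1 promoter and Prdm14) in both KLF4 lists, against 30.3% of all KLF4 windows with FLAG and 28.2% with JMJD3. The broader letters were present in 5 of 6, against 71.9% and 70.9%. Both shares were close to those of the whole lists. The KLF4 windows of JMJD3 cells at the promoters of Tfcp2l1, Klf2 and Klf5 and downstream of Prdm14 are printed because they are where KLF4 met these genes, read from the RefSeq genome on the strand of the gene, 5′ to 3′. Capitals mark the KLF letters at Tfcp2l1 and Prdm14 and the broader letters at Klf2 and Klf5, on either strand.
Tfcp2l1 promoter, chr1:118627823-118628022: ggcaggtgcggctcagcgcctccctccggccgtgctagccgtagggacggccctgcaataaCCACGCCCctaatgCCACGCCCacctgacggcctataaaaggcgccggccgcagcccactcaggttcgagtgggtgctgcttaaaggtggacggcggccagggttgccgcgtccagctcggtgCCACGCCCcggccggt
Klf2 promoter, chr8:72318832-72319031: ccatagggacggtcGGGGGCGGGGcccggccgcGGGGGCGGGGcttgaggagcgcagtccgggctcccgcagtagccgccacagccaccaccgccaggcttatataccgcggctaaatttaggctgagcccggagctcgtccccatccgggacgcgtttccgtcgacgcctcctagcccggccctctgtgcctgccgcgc
Klf5 promoter, chr14:99298551-99298750: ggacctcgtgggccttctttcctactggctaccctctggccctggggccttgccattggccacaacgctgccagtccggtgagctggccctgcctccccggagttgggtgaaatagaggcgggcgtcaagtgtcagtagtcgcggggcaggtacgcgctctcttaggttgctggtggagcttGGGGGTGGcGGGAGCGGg
Prdm14 downstream, chr1:13104055-13104254: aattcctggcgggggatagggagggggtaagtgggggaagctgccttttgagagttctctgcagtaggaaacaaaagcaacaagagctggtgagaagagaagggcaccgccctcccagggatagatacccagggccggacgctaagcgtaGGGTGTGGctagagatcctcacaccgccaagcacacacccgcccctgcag

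The Tfcp2l1 window held 3 copies of the KLF letters and 70.0% G and C, and the Prdm14 window 1 copy and 59.0%. The Klf2 window held none of them but 4 overlapping matches of the broader letters and 72.5% G and C, and the Klf5 window held 2 matches and 66.0%. The intron peak of Tfcp2l1 held neither form. At the JMJD3 positions the KLF letters were present in 0 of 6 windows, against 8.14% of all JMJD3 windows with OSKM, and the broader letters in 1, at Klf2, against 38.1%. The letters TGANTCA, bound by AP-1 factors of fibroblasts, were in 0 of 6 (11.4% of all). The octamer ATGCAAAT, bound by Oct4, was in 1 of 6 (3.81%), but in 0 of 6 when windows were 100 bp wide. CATTGTT, bound by Sox factors, was in 1 of 6 (8.69%), and in 1 of 6 with 100 bp as well. Both were in the 200 bp window of Klf5. That window is printed because it is the 1 JMJD3 site with letters of other factors of the OSKM mixture, plus strand, with both matches in capitals, the second on the opposite strand.
Klf5 downstream, chr14:99353256-99353455: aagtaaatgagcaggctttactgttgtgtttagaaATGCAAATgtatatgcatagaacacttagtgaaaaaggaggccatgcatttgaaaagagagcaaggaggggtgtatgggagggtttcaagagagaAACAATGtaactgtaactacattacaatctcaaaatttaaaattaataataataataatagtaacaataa

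Other genes of the pluripotency network also ranged from marked in every list to never marked. Of 22 partner genes, among them Nanog, Pou5f1, Sox2 and Sall4, 5 had a peak in all 10 lists, 9 in none and 8 in some, where 4.68% of all genes had one in all 10 and 77.6% in none. The 5 were Sox2, Klf4, Fgf4, Utf1 and Lin28a. Pou5f1, Sox2 and Klf4 are also carried by the viruses. Sox2 and Klf4 had a peak on an exon in both MEF lists, without virus, whereas 2 other genes of the vectors had one only in infected cells, Myc in 6 of the 8 OSKM lists and Kdm6b in 3 of the 4 JMJD3 lists. Whether reads of the vectors entered the peaks at these genes was not tested. At day 5, 10 partners had a peak with FLAG and 8 with JMJD3 in WT cells (14.7% and 11.0% of all genes), and 10 with either vector in KO cells (13.7% and 13.0%). At day 10 it was 7 and 6 in WT cells (12.1% and 8.26%), and 7 and 8 in KO cells (12.8% and 11.7%). Of 13 genes of formative or primed pluripotency, such as Otx2 and Fgf5, 4 had a peak in all 10 lists and 3 in none, against the same 4.68% and 77.6%. Of the 17 genes of the Krüppel-like family, 2 (Klf4 and Klf14) had a peak in every list and 12, Klf5 among them, in none, the latter close to the 77.6% of all genes. KLF4 peaks were found near 14 of these 17 genes with FLAG and near all 17 with JMJD3, against 59.5% and 67.2% of all genes.

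JMJD3 with OSKM was found near 13 of the 22 partners (55.6% of all genes), and 10 of the 22 had KLF4 and JMJD3 within 400 bp (33.5% of all genes), where 1 of the 6 naive genes did. Among the Krüppel-like genes 13 of 17 had JMJD3 and 9 had both factors within 400 bp, Klf2 among them. With low KLF4, 5 of the 22 partners and 8 of the 17 Krüppel-like genes had a JMJD3 position, against 14.1% of all genes and 0 of the 6 naive genes.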

How the data were processed

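Peak lists of 14 libraries were used, with 1 library per group. The other 6 of the 20 samples (4 inputs and 2 H3K27ac samples) were not used here. According to the study's methods, reads were aligned to mm10 with bowtie2. Peaks of H3K27me3 were called by DFilter, and those of KLF4 and JMJD3 by MACS2. Drosophila chromatin was added as a spike-in for H3K27me3, and its part in the peak calls was not stated. The anti-FLAG samples had an additional crosslinking step. The deposited H3K27me3 lists hold intervals of 1000 bp with a score whose scale was not stated. The deposited KLF4 lists hold intervals and the deposited JMJD3 lists hold single positions, both without a score.

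Groups came from the sample labels. The 6 genes and the gene lists were chosen with earlier results of these data known, and all 6 are named by rule. Gene positions and TSSs were those of GENCODE M21 basic protein-coding transcripts on chromosomes 1 to 19, X and Y. A peak counted within 5 kb of a TSS when any base of it fell in that range, and KLF4 and JMJD3 sites counted within the gene and 50 kb on each side. KLF4 and JMJD3 sites within 400 bp were taken as 1 site, the distance used in the study. Sequence was read from RefSeq's GRCm38.p6, the same build as mm10, and 6 of 6 reference promoter sequences found for 4 of the genes equalled it. With 1 library per group no spread between replicates could be estimated, and no test was run but an exact permutation test of list position over 4 pairs matched by genotype and day, added after the data were seen. Alternatives covered the distances, the set of TSSs, the score, the list length, peak width, the merging distance, the motif window and the motif letters. The use of all transcripts of the comprehensive annotation, and all alternatives to the count of genes marked in all 10 lists, were also added after the data were seen. Overlaps gave the same genes as bedtools in 14 of 14 lists, and peaks planted beside 200 genes were all found or left out as their distance required. Python 3.11.15, numpy 2.4.6, pysam 0.24.0, matplotlib 3.10.9 and bedtools 2.31.1 were used.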

Additional observations from a re-analysis of the deposited data

Results flagged for a closer look

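In some cases the same change moved a gene's best H3K27me3 peak toward the top of the list in one setting and away from it in another. Each setting had 1 library per list, so these differences were not tested. Values are differences in list position in percentage points, and a negative value is a move toward the top. Between genotypes, opposite moves with JMJD3 were common. Of 1380 genes with a peak in all 4 day 10 lists, 48.3% moved in opposite directions with JMJD3 in WT and KO cells. At day 5 it was 41.6% of 1978 genes. No such share was counted for the effect of JMJD3 compared between days, or for the changes over time with FLAG.

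At day 10, the change from FLAG to JMJD3 differed in direction between genotypes for 3 genes. It was 1.45 points in WT and -3.67 in KO cells for Esrrb (KO minus WT, -5.12), -61.3 and 9.42 for Nr5a2 (70.7), and 13.9 and -17.5 for Prdm14 (-31.4). The same change also differed in direction between day 5 and day 10. In WT cells it went from -2.24 to 1.45 for Esrrb (day 10 minus day 5, 3.69) and from -0.889 to 13.9 for Prdm14 (14.8), and in KO cells it went from -24.3 to 9.42 for Nr5a2 (33.7).

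The change from MEFs to day 5 FLAG cells was 2.08 in WT and -0.51 in KO cells for Esrrb (KO minus WT, -2.59), and 18.3 and -11.6 for Nr5a2 (-29.9). The lists of KO cells grew from 4113 to 5643 peaks in this step, and by rank Esrrb went from 107 to 118, away from the top as in WT cells (73 to 201), and Nr5a2 from 1757 to 1755 (2170 to 3181 in WT cells). By rank the opposite directions were therefore not seen for Esrrb, and for Nr5a2 the move in KO cells was 2 ranks. The best Nr5a2 peak changed place in several of these steps. The other directions given here were the same by rank. The change from day 5 to day 10 with FLAG was -1.59 in WT and 3.12 in KO cells for Esrrb (4.7), 29.7 and -1.71 for Nr5a2 (-31.4), and -3.89 and 16.6 for Prdm14 (20.5).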

How the results depend on the processing

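Of 133 comparisons of 23 counts with an alternative, 113 stayed within 1.5 times the reported count and 20 did not. The count of genes with an H3K27me3 peak in all 10 lists, 3 as reported, was 1 with 1 TSS per gene and 1 with a score of at least 20. With a score of at least 20, the genes with an H3K27me3 peak went from 4 to 2 in day 5 WT cells with FLAG, from 4 to 1 in day 10 WT cells with JMJD3 and from 4 to 2 in day 10 KO cells with FLAG. With all lists at a common length of 3045 peaks, the day 5 WT count with FLAG was 2, and the day 5 difference between genotypes at Klf2 and Tfcp2l1 ended. With 1 TSS per gene the count was 1 in day 5 KO cells with FLAG and 2 in day 10 WT cells with FLAG, in day 10 WT cells with JMJD3 and in day 10 KO cells with JMJD3. That rule leaves out the internal TSSs of Esrrb and Nr5a2. The count of genes that lost their peak with JMJD3, 0 as reported, was 1 in day 5 WT cells and 1 in day 10 KO cells with 1 TSS per gene, 1 in day 10 WT cells and 1 in day 10 KO cells within 1 kb of a TSS, and 2 in day 10 WT cells with a score of at least 20. KLF letters were in 1 of the 6 KLF4 windows of each list when windows were 100 bp wide, and with the broader letters in 5, and in 1 JMJD3 window. All counts of KLF4 and JMJD3 sites stayed within 1.5 times under their alternatives. The labels give no replicate numbers, so no fit blocked by replicate was made. The exact permutation test over the 4 pairs matched by genotype and day gave p of 0.25 to 0.625. Depth could not be read from the lists, and a peak missing from a list may lie under its threshold.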
